A study of Mus musculus with 98 samples.

Results

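The Fos and Jun family of the transcription factor AP-1 (activator protein 1) was followed as 7 genes, Fos, Fosb, Fosl1, Fosl2, Jun, Junb and Jund, chosen by symbol. All 7 were counted in each of the 6 deposited tables, among 55852 gene symbols found in any table and 24754 found in all 6. The tables held 98 mouse RNA-seq libraries in 22 groups. Primary hippocampal neurons from CD1 embryos received a PhP.eB virus, an adeno-associated virus capsid that reaches neurons, on day 5 of culture for 48 hours. The virus carried Acss2, which encodes an acetate-using acetyl-CoA synthetase (upACSS2), or was a vector control, and the cells received hAD-tau or PBS on day 7. These neurons were sampled unstimulated on day 9 and day 21 (8 groups of 3 libraries) and in groups labelled as stimulated on day 21 (4 groups of 3). The stimulating agent and its duration are not given in the sources used here. A separate day 21 culture without virus comprised 4 hAD-tau libraries and 3 PBS libraries.

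The mice were male, and a retro-orbital injection of the same 2 viruses preceded a memory task. Aged C57BL6 mice of 22 to 23 months gave whole hippocampus 30 minutes after remote context recall (12 with upACSS2, 12 with vector). Their labels give injection at 21 to 22 months and sampling 2 months after injection. C57BL6 mice of 10 months gave dorsal hippocampus 30 minutes after acquisition of fear conditioning (6 with upACSS2, 5 with vector). Their labels give 2 weeks for the virus, so the time with virus differs between the mouse settings. PS19 mice carry a mutant human tau transgene driven by the Prnp promoter. They were injected at 2.5 months and sampled 30 minutes after 24-hour contextual recall, 1 month or 6 months after injection, at 3.5 months and at 8.5 to 9 months of age, with 5 mice for each virus and time. Every mouse group was sampled after behaviour, so none of them gives a resting level. Of the 4 PS19 groups, upACSS2 at 1 month is labelled as whole hippocampus and 3 as its dorsal part, so at 1 month the virus cannot be told apart from the dissection. Groups follow the sample titles, because the treatment entry goes against the title in vector tau neurons, upACSS2 PBS neurons, the 1-month upACSS2 group of PS19 and 1 mouse of the 1-month vector group. Nothing in the labels says which neuron libraries came from separate cultures, so p-values for them measure the spread between libraries, which may be technical.

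AP-1 is a dimer of basic leucine zipper proteins. Fos proteins (c-Fos, FosB, Fra-1 and Fra-2, from Fos, Fosb, Fosl1 and Fosl2) do not form stable dimers with each other and bind DNA with a Jun partner, whereas Jun proteins (c-Jun, JunB and JunD) also pair among themselves. In neurons, calcium entry and kinase cascades act through CREB, SRF and ternary complex factors on the promoters of Fos, Fosb and Junb, which are transcribed within minutes without new protein synthesis. Jund is expressed at a steady level in most cells, and c-Jun is known for its activation by JNK kinases after injury or stress.

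Promoter sequences are shown for the 4 members whose window held a motif named here, 3 of which were the most strongly induced members on stimulation. They are the 150 bases before the RefSeq transcription start (GRCm38.p6), written 5′ to 3′ on the gene's strand, at chr12:85473740-85473889 (plus strand) for Fos, chr7:19310046-19310195 (minus strand) for Fosb, chr8:84978749-84978898 (minus strand) for Junb and chr4:95052223-95052372 (minus strand) for Jun. Capitals mark the motif TGACG (the core of the cAMP response element), its longer form TGACNTCA as bound by ATF and Jun dimers, and the TATA element TATAAA.
Fos: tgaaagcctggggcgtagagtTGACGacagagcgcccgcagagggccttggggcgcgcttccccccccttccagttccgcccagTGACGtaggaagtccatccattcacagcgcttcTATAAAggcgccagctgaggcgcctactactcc
Fosb: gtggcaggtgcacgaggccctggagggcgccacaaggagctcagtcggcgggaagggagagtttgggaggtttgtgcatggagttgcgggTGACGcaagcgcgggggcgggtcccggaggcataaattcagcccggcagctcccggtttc
Junb: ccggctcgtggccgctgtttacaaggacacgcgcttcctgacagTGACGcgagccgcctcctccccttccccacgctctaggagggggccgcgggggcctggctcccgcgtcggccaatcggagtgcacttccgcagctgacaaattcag
Jun: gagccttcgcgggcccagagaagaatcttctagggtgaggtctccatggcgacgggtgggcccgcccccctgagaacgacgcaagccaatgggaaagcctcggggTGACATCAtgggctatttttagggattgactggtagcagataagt
The window of Fos held TGACG at -129 to -125 and at -66 to -62 and TATAAA at -33 to -28, counted from the first transcribed base. Fosb held TGACG at -60 to -56, Junb held TGACG at -106 to -102, and Jun held the longer form, as TGACATCA, at -45 to -38. Windows of 250 bases were searched on both strands for TGACG (the core), for TGACNTCA (the longer form), for TGANTCA (the AP-1 site), for TATAAA (the TATA element) and for the CArG box (the SRF site, by its name). The core overlaps the longer form where its N is G. No CArG box was found in the members' windows, and bases further upstream, where such a site could lie, were not searched. Among 32851 promoters in the same table, 17.8% held the core, 7.49% the longer form, 6.75% the AP-1 site, 12.4% the TATA element and 1.47% a CArG box. A promoter sequence was matched for 6 of the 7 members, and the windows of Fosl2 and Jund held none of these letters. The RefSeq start of Jund lies upstream of the GENCODE start: its window ended at 70697738, and the GENCODE gene starts at 70698949. The last 150 bases of the Fosl2 window (32136322 to 32136471) lay inside the GENCODE gene, which starts at 32135801. The bases before the GENCODE starts of these 2 genes were not searched.

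In the GENCODE M21 annotation of GRCm38, Fos lies on chromosome 12 (85473890 to 85477273, plus strand), Fosb on chromosome 7 (19302696 to 19310051, minus strand), Fosl1 on chromosome 19 (5447547 to 5455946, plus strand) and Fosl2 on chromosome 5 (32135801 to 32157842, plus strand). Jun lies on chromosome 4 (95049034 to 95052222, minus strand), Junb on chromosome 8 (84974484 to 84978718, minus strand) and Jund on chromosome 8 (70698949 to 70700616, plus strand). Exons on the opposite strand overlap 4 members: Ccdc85b shares 1163 bases with Fosl1, Junos 232 with Jun, Prdx2 173 with Junb and Gm11175 877 with Jund. The strand setting of the counting is not given in the sources used here, so reads from these partners may be mixed. Counts per gene do not separate the full-length FosB transcript from the shorter one that encodes ΔFosB.

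Total counts ran from 5075099 to 39985460 per library. Levels are CPM (counts scaled to a common library size), and log2 CPM carries a prior count of 2. Acss2 ran from 1488 to 5462 CPM in the neurons with upACSS2 and from 40.1 to 57.9 CPM in those with vector. In mice the ranges overlapped in the aged groups (46.7 to 61.5 CPM against 40.0 to 53.7 CPM), in the PS19 groups at 1 month (60.1 to 1465 against 51.5 to 66.3) and at 6 months (44.95 to 237 against 43.1 to 56.0), and did not overlap at 10 months (49.9 to 59.3 against 42.3 to 48.9). The ribosomal repeat Rn45s took 11%, 7.93% and 4.1% of the counts in 3 day 21 libraries, vector PBS replicate 2, upACSS2 PBS replicate 1 and vector tau replicate 2. In the aged mice the first principal component of log2 CPM (39.2% of the variance of 2000 genes) separated replicates 1 to 3 from replicates 4 to 12 of both groups. Neuron markers were detected in every culture and tissue group, and astrocyte markers were present in every culture group.

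The stimulated cultures had much higher levels of the family than the unstimulated cultures of the same day, with the highest rises in Fosb, Fos and Junb. Fos, Fosb, Fosl2, Jun, Junb and Jund passed as higher in vector PBS, vector tau, upACSS2 PBS and upACSS2 tau (edgeR quasi-likelihood test, Benjamini-Hochberg adjusted p under 0.05). Fosl1 passed in each of these arms except upACSS2 tau. It was at 0 to 0.385 CPM unstimulated and entered this test only through its stimulated libraries, so its calls do not add to the result. The share of all 15108 genes called higher was 4.65%, 2.38%, 2.37% and 1.74% in the same order. The median log2 fold change of the members was 2.85, 3, 2.61 and 1.86, and that of all genes was between -0.031 and -0.014. Stimulated and unstimulated libraries were deposited in separate tables and were scaled together here, so stimulation and table cannot be told apart.

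**Figure D1:**
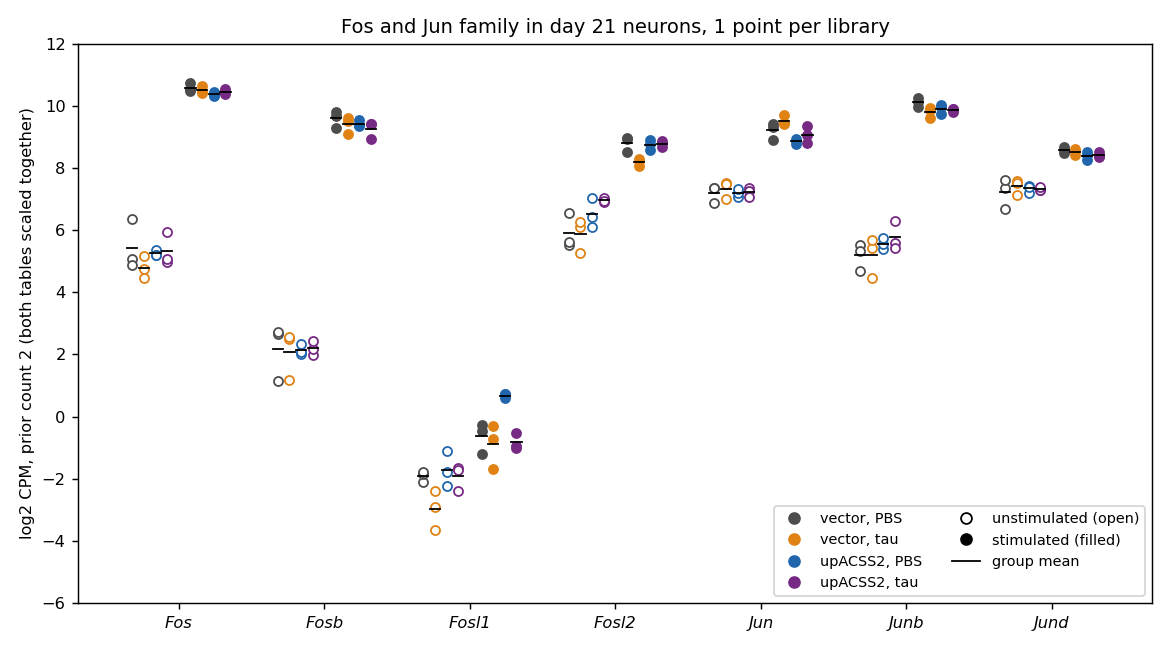
Log2 CPM of the 7 genes in 24 day 21 neuron libraries, with 1 point per library, open for unstimulated and filled for stimulated cultures, colour for virus and treatment, and a bar for the mean of 3 libraries. Fos, Fosb, Fosl2, Jun, Junb and Jund lie higher in every stimulated library than in any unstimulated library, and Fosl1 stays below 2 CPM.

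Fosb, which encodes FosB, was near the bottom of the family at rest and rose the most. In vector PBS it was 6.28, 2.14 and 6.55 CPM in the 3 unstimulated libraries and 631, 823 and 902 CPM in the 3 stimulated ones, a log2 fold change of 7.29 ± 0.37 (SE, edgeR adjusted p 7.55e-11). The ratio of group means was 136 to 159 over the 4 combinations of virus and treatment, and the stimulated libraries lay from 487 to 902 CPM in all. In the unstimulated vector groups the lowest Fosb libraries, vector PBS replicate 2 and vector tau replicate 2 at 2.14 and 2.17 CPM, were 2 of the 3 with over 4% Rn45s.

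Fos, the classic marker of recent neuronal activity, was 33.3, 29.3 and 81.4 CPM in unstimulated vector PBS and 1485, 1422 and 1698 CPM after stimulation. Its log2 fold change was 4.99 ± 0.33 (edgeR adjusted p 1.64e-09), and the ratio of means was 32.0 in vector PBS and 51.6 in vector tau. The 12 stimulated libraries lay between 1281 and 1698 CPM, a narrow band beside 21.9 to 81.4 CPM in the 12 unstimulated ones. The difference between those ratios came with a lower unstimulated mean in vector tau (28.3 CPM against 48.0), while the stimulated means were 1462 and 1535 CPM.

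Fosl2, which encodes Fra-2, started higher and rose less. It was 94.7, 45.7 and 49.2 CPM unstimulated and 496, 366 and 507 CPM stimulated in vector PBS, a log2 fold change of 2.85 ± 0.28 (edgeR adjusted p 5.59e-07). Its ratio of means fell between 3.52 in upACSS2 tau and 7.22 in vector PBS. Fosl1, which encodes Fra-1, was barely counted: 3, 5 and 7 reads in unstimulated vector PBS (0.152, 0.198 and 0.209 CPM) and 14, 30 and 9 reads after stimulation (0.652, 0.755 and 0.354 CPM). Fosl1 passed in vector PBS at a log2 fold change of 1.62 ± 0.46 (edgeR adjusted p 0.0373), and did not pass there with no filter on low counts (0.0592), with voom (0.0647) or without the libraries over 4% Rn45s (0.0973). It was also lost there without unstimulated replicate 2 (0.104) or 3 (0.0797) and without stimulated replicate 1 (0.102) or 2 (0.128), and in vector tau without stimulated replicate 2 (0.0621). Its highest stimulated group was upACSS2 PBS, with 52, 55 and 41 reads (1.57, 1.57 and 1.43 CPM).

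Among the Jun genes, Junb rose the most, with a ratio of means of 29.7 in vector PBS (32.0 for Fos), 23.2 in vector tau (51.6), 20.4 in upACSS2 PBS (34.8) and 16.7 in upACSS2 tau (33.4). JunB was long described as a weaker activator than c-Jun. Junb was 46.4, 25.9 and 40.7 CPM unstimulated and 1123, 1007 and 1222 CPM stimulated in vector PBS, a log2 fold change of 4.89 ± 0.29 (edgeR adjusted p 3.44e-10). Jun was 165, 117 and 165 CPM unstimulated and 476, 693 and 646 CPM stimulated, with a log2 fold change of 2.02 ± 0.18 (edgeR adjusted p 1.09e-07). Jund, the steady member, was 166, 103 and 198 CPM unstimulated and 361, 384 and 409 CPM stimulated, and rose by 1.31 ± 0.16 on the log2 scale (edgeR adjusted p 1.70e-05). Over all 4 arms the ratio of means was 3.17 to 4.56 for Jun and 2.08 to 2.48 for Jund, and no stimulated library of Jun, Junb or Jund overlapped an unstimulated one.

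The stimulation response was not shown to differ with virus or tau. In each of the 4 interaction tests 0 of 7 members passed (0 at an unadjusted p under 0.05, 0 with DESeq2), and 0% of 15108 genes were called. The SE of a difference between responses was 0.23 to 0.83 on the log2 scale, so differences near that size, and some well above it, could not be resolved. For virus the difference was above 0 in 3 of 7 members in PBS and 0 of 7 in tau. For tau it was above 0 in 3 of 7 in vector and 2 of 7 in upACSS2. The members' medians were -0.25, -0.45, -0.06 and -0.23 in that order, and those of all genes -0.008, -0.007, 0.007 and 0.016. These counts and medians of the members include Fosl1. The Fosl2 response with upACSS2 minus that with vector was -0.67 ± 0.37 in PBS and -0.45 ± 0.37 in tau (edgeR adjusted p 0.707 and 1). The Fos response with tau minus that with PBS was 0.70 ± 0.40 in vector and -0.06 ± 0.40 in upACSS2.

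Other genes of the pathway are set beside the 4.65%, 2.38%, 2.37% and 1.74% of all genes called higher. Of 16 other rapid activity genes, 15 were higher in each of the 4 arms and Ier5 was not called in any; in vector PBS the highest were Klf4 at 7.24 ± 0.39 and Npas4, a neuron-specific activity factor, at 6.57 ± 0.57, and the lowest called were Per1 at 2.24 ± 0.19 and Nr4a3 at 2.81 ± 0.31 (log2 fold change and SE, edgeR). The list's median was 4.56 there. Of 14 tested bZIP partners of AP-1, 5, 3, 7 and 3 were higher in vector PBS, vector tau, upACSS2 PBS and upACSS2 tau and 0 were lower, led in vector PBS by Maff (5.38 ± 0.33), a small Maf protein, and Atf3 (4.51 ± 0.32). Of 25 kinases and factors upstream of AP-1, 4, 1, 0 and 0 were higher, led in vector PBS by Srf (0.96 ± 0.18) and Elk4 (0.79 ± 0.17), with the counts of the other 3 arms near or below the background. Of 17 tested reported target genes, 4, 4, 1 and 2 were higher, with Nptx2 (2.17 ± 0.40), a secreted synaptic pentraxin, and Inhba (2.08 ± 0.34) the highest in vector PBS.

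Per kilobase of exon, Jund held the highest share of the family's transcripts in unstimulated day 21 neurons and Fos in stimulated ones. Jund held 48.4% to 54.4% of the summed CPM per kb of the 7 genes in the 4 unstimulated day 21 groups and 13.3% to 13.8% in the 4 stimulated ones. Fos held 6.44% to 10.7% unstimulated and 37.7% to 39.2% stimulated. Junb went from 8.60% to 12.1% of the family to 24.3% to 28.2%, and Fosb from 0.363% to 0.414% to 6.45% to 7.46%. Jun, the other large share at rest, held 23.7% to 26.9% unstimulated and 9.85% to 14.5% stimulated. These shares are group means of 3 libraries, described without a test, and assume the union of annotated exons as each gene's length.

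**Figure D2:**
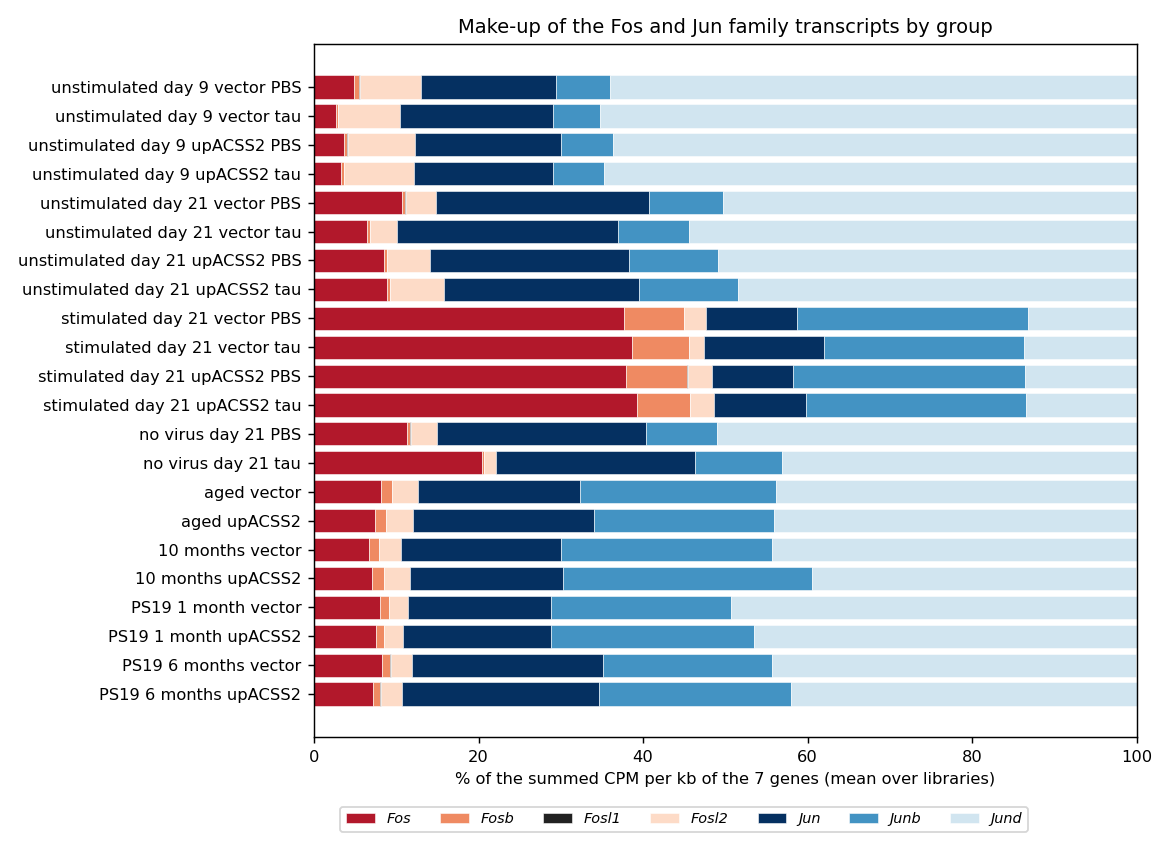
Horizontal stacked bars give each gene's mean share of the summed CPM per kb of the 7 genes in each of the 22 groups. Jund holds 39.4% to 65.3% outside the stimulated neurons, and Fos holds 37.7% to 39.2% in the 4 stimulated groups.

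Between day 9 and day 21, unstimulated neurons gained Fos, Jun and Junb in all 4 combinations of virus and treatment, while Fosl2 was called lower in the 2 vector arms, a difference between arms that was not tested. In vector PBS 3 members were higher and 1 lower, in vector tau 4 higher and 1 lower, and in upACSS2 PBS and upACSS2 tau 3 were higher and 0 lower (edgeR). Culture day moved most of the transcriptome: of 14863 genes, 30.6%, 27.7%, 28.5% and 27.2% were called higher and 27.1%, 24.9%, 25.8% and 26.4% lower in that order. In bulk RNA, fewer cells of a type and less RNA per cell cannot be told apart. Summed markers of other cell types moved with culture day: 7 astrocyte markers summed to 2273 to 2834 CPM on day 9 and 3654 to 20400 CPM on day 21, 4 oligodendrocyte precursor markers to 5.67 to 22.7 and 465.6 to 1101 CPM, and 6 oligodendrocyte markers to 17.1 to 21.6 and 98.4 to 855 CPM. Their part in the members' differences was not tested.

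**Figure D3:**
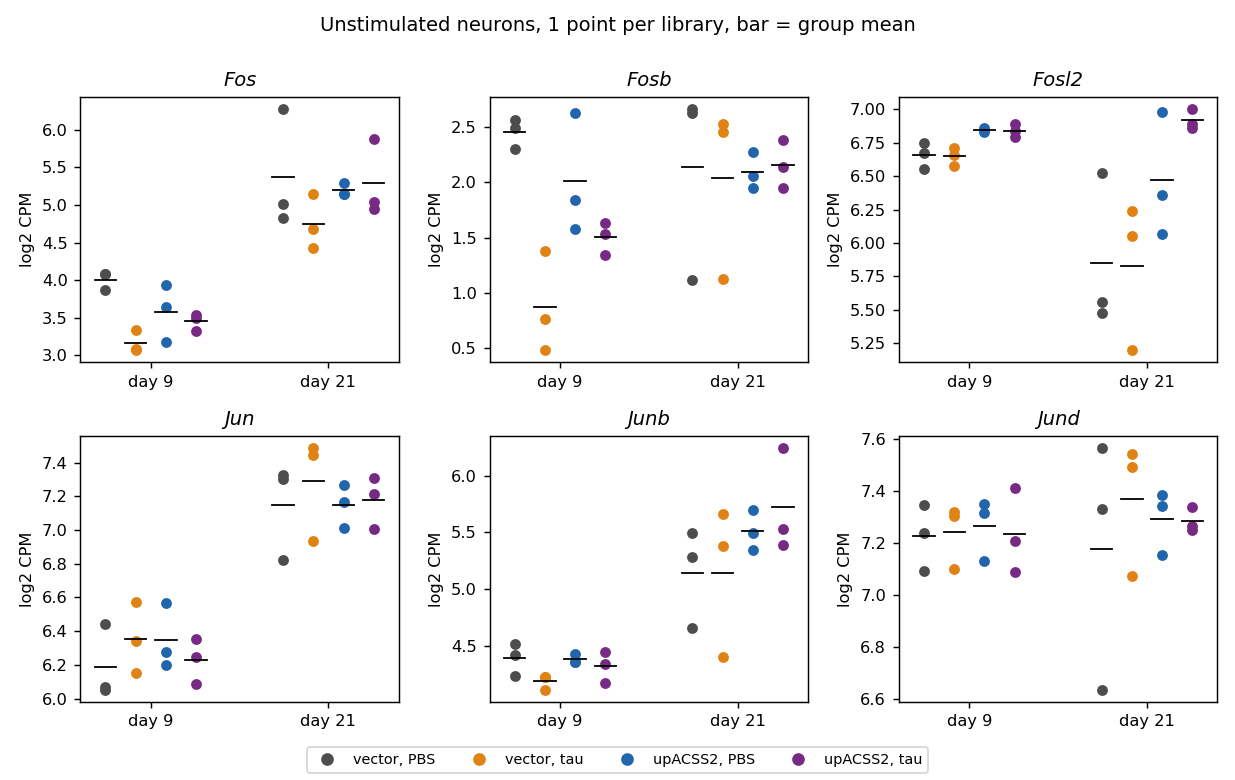
Log2 CPM of 6 members in the 24 unstimulated neuron libraries by culture day, with 1 point per library, colour for virus and treatment, and a bar for the mean of 3. Fos and Jun sit higher on day 21 in every group, the 2 days overlap for Jund, and day 21 libraries of Fosl2 spread over a wider range than day 9 libraries.

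Fos was 16.8, 16.8 and 14.5 CPM on day 9 and 32.3, 28.4 and 77.7 CPM on day 21 in vector PBS, a log2 fold change of 1.53 ± 0.30 (edgeR adjusted p 0.00023). It rose by 1.63, 1.58 and 1.91 on the log2 scale in vector tau, upACSS2 PBS and upACSS2 tau. No day 21 library of Fos fell within the day 9 range, and vector PBS replicate 3 stood at the top on day 21. In vector PBS without that library the rise was 0.91, the lowest value when each library was left out in turn.

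Jun was 66.3, 67.0 and 86.8 CPM on day 9 and 160, 113 and 158 CPM on day 21 in vector PBS, and rose by 0.97 ± 0.16 (SE, edgeR adjusted p 3.26e-05), with 0.94, 0.80 and 0.95 in the other arms. Junb was 22.8, 21.3 and 18.8 CPM against 44.9, 25.1 and 38.8 CPM, a rise of 0.79 ± 0.25 (edgeR adjusted p 0.0101), and it rose by 1.05, 1.14 and 1.45 in the other arms. Jun and Junb libraries of the 2 days did not overlap in vector PBS, though the Junb library nearest to day 9 was the one with the most Rn45s. Fosb, by contrast, was called in vector tau alone, at 1.31 ± 0.40 (edgeR adjusted p 0.00941), where its day 9 libraries were 1.61, 1.30 and 2.50 CPM and its day 21 libraries 5.40, 2.09 and 5.68 CPM. Without day 9 vector tau replicate 2 that call was lost (adjusted p 0.053), and whether the Fosb change differs between arms was not tested.

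Fosl2 was 108, 93.9 and 102 CPM on day 9 and 91.7, 44.3 and 47.0 CPM on day 21 in vector PBS, and fell by 0.73 on the log2 scale (SE 0.25, edgeR adjusted p 0.0147). It fell by 0.75 in vector tau (SE 0.25, adjusted p 0.0145) and differed by -0.33 in upACSS2 PBS and 0.08 in upACSS2 tau (adjusted p 0.268 and 0.804). The vector PBS call was lost without day 21 replicate 2 (0.0828) or 3 (0.0671) and with only the groups compared (0.0533). The vector tau call was lost without day 21 replicate 2 (0.0708) and without the libraries over 4% Rn45s (0.0597). Jund differed by -0.00 to 0.14 on the log2 scale with adjusted p from 0.489 to 0.997 over the 4 arms.

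Of 16 other rapid activity genes, 5, 8, 8 and 8 were higher and 1 lower on day 21 in the 4 arms, led in vector PBS by Arc (2.01 ± 0.44) and Btg2 (1.76 ± 0.18), with Nr4a3 the lower gene (-2.20 ± 0.29, edgeR). Of 13 tested bZIP partners 5, 5, 5 and 4 were higher and 3, 4, 3 and 4 lower, among them Atf3 (3.78 ± 0.34) and Mafg (-0.63 ± 0.10) in vector PBS. Of 25 upstream kinases and factors 4, 5, 5 and 5 were higher and 12, 12, 14 and 12 lower, beside 27.1%, 24.9%, 25.8% and 26.4% of all genes called lower, such as Elk3 (1.33 ± 0.21) and Camk4 (-1.07 ± 0.21) in vector PBS. Of 16 tested reported targets 11, 12, 11 and 13 were higher and 2, 1, 2 and 1 lower, with the protease genes Mmp3 (7.75 ± 2.09) and Mmp12 (5.13 ± 1.12) the highest and Sphk1 (-1.39 ± 0.22) and Mmp9 (-1.06 ± 0.37) the lower genes in vector PBS. The share called over all genes in either direction was 57.7%, 52.6%, 54.3% and 53.6%.

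In day 9 neurons with the vector, hAD-tau came with lower Fosb and Fos. Fosb was 1.61, 1.30 and 2.50 CPM with tau and 5.83, 5.55 and 4.85 CPM with PBS, and fell by 1.63 on the log2 scale (SE 0.24, edgeR adjusted p 0.00104). Fos was 8.35, 8.28 and 10.0 CPM with tau and 16.8, 16.8 and 14.5 CPM with PBS, and fell by 0.87 (SE 0.13, adjusted p 0.00115). The groups did not overlap for Fosb or Fos, nor for Junb (17.25 to 18.69 CPM with tau, 18.79 to 22.75 CPM with PBS). Junb was not called and had an unadjusted p under 0.05, as had 2883 of 14022 genes (edgeR). The share of all genes without overlap was not computed. Fosb and Fos, 2 of 6 tested members, compare with 2.27% of 14022 genes called lower and 4.28% called in either direction. Both calls held when each of the 6 libraries was left out in turn. In a fit of all 24 unstimulated libraries, which shares its spread with the more variable day 21, the log2 fold changes were -1.60 and -0.85 and the adjusted p was 1 for each, with 1 gene called in place of 600.

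Of the 16 other rapid activity genes 6 were lower with tau in this comparison and 0 higher, with Npas4 (-1.34 ± 0.18) and the nuclear receptor gene Nr4a1 (-0.87 ± 0.17) the lowest (edgeR adjusted p 0.000449 and 0.00593). The list's median was -0.39, against 0.00 over all genes. Of 13 tested bZIP partners Maff was lower (-0.80 ± 0.22). Upstream kinases and factors that passed included Elk1 (0.43 ± 0.07) and Crtc1 (0.23 ± 0.06), which were higher, and Map2k1 (-0.16 ± 0.05), which was lower. Of 13 tested reported targets 1 was higher, Hmox1 (0.31 ± 0.09), and 4 were lower, led by Nptx2 (-0.37 ± 0.10) and Ccnd1 (-0.30 ± 0.09). Summed astrocyte markers were 2638 to 2747 CPM with tau and 2338 to 2602 CPM with PBS, and neuron markers 7113 to 7446 and 6667 to 6899 CPM, so both lay slightly higher with tau without overlap, and their part in the result was not tested.

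With upACSS2, day 9 tau and PBS cultures gave no member call. Fos was 9.88, 11.2 and 11.5 CPM with tau and 12.3, 8.91 and 15.2 CPM with PBS, and Fosb 2.80, 3.01 and 2.45 against 2.90, 3.50 and 6.08 CPM. The log2 fold changes were -0.18 ± 0.13 for Fos and -0.60 ± 0.22 for Fosb (edgeR adjusted p 0.720 and 0.365), with 0 of 6 members called by edgeR, 1 at an unadjusted p under 0.05 (Fosb) and 0 with DESeq2, beside 0.349% of all genes. The difference between the tau effects with upACSS2 and with vector was 0.69 ± 0.18 for Fos and 1.03 ± 0.34 for Fosb and did not pass (edgeR adjusted p 0.065 and 0.112). In that interaction test 0 members were called, 2 had an unadjusted p under 0.05, DESeq2 called 0, and 0.663% of all genes were called. Both members passed without upACSS2 PBS replicate 3 (Fos 0.0234, Fosb 0.0243) or without vector tau replicate 3 (0.0171 and 0.0276), and 3 members passed with no filter on low counts.

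In day 9 PBS cultures, upACSS2 went with slightly higher Fosl2 and lower Fos than vector. Fosl2 was 116, 115 and 114 CPM against 108, 93.9 and 102 CPM, higher by 0.17 ± 0.05 (edgeR adjusted p 0.0231), and Fos was 12.3, 8.91 and 15.2 against 16.8, 16.8 and 14.5 CPM, lower by 0.39 ± 0.12 (log2 fold change -0.39, adjusted p 0.0396). Fosl2 libraries did not overlap and Fos libraries did. With 1 of 6 members higher and 1 lower, against 4.9% and 5.35% of all genes (10.2% in either direction), the 2 members are too few for a statement on the family. Leaving out 1 library at a time gave adjusted p of 0.0221 to 0.104 for Fosl2 (lost without upACSS2 replicate 1 or 2 or vector replicate 2, and at the threshold without upACSS2 replicate 3) and 0.00919 to 0.175 for Fos (lost without upACSS2 replicate 1 or 2 or vector replicate 1 or 2). In the fit of all 24 libraries both adjusted p were above 0.9 (0.986 and 0.962). Markers of other cell types moved in this comparison: neuron markers summed to 7214 to 7509 CPM with upACSS2 and 6667 to 6899 CPM with vector (3 of 8 called higher and 1 lower), and oligodendrocyte precursor markers to 5.67 to 7.28 and 10.3 to 22.7 CPM (2 of 3 tested called lower). Their part in the Fosl2 and Fos differences was not tested. In tau cultures Fosl2 differed by 0.19 ± 0.05 between upACSS2 and vector (edgeR adjusted p 0.07, DESeq2 0.0478), with 0 of 6 members called by edgeR, 3 at an unadjusted p under 0.05, 1 with DESeq2, and 0.692% of all genes called (0.364% higher).

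On day 21 no member passed in any of the 5 unstimulated comparisons of virus, tau and their interaction. The share of all genes called was 0.0137% and 0.0273% for upACSS2 against vector in PBS and in tau, and 0% for the other 3. Of these 5 tests 1 member value had an unadjusted p under 0.05 and DESeq2 called 0 members. That value was Fosl2 in tau, at 128, 116 and 119 CPM with upACSS2 and 66.4, 36.6 and 75.3 CPM with vector, without overlap, a log2 difference of 1.04 ± 0.32 (edgeR adjusted p 0.311). It passed in the fit of all 24 unstimulated libraries (0.025), which shares its spread with the less variable day 9. That fit called 528 genes in this comparison in place of 4. Astrocyte markers moved with it, at 6115 to 11550 CPM with upACSS2 and 3654 to 5808 CPM with vector, without overlap, with 0 of 7 called, and their part was not tested. The day 9 spread between libraries (biological coefficient of variation 0.042) was well below that of day 21 (0.189), so smaller differences could be called on day 9.

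In stimulated neurons, Fosl2 in vector cultures was the only member called by edgeR in the 5 comparisons of virus and tau. Fosl2 was 296, 311 and 265 CPM in vector tau, 489, 357 and 501 CPM in vector PBS, 462, 405 and 444 CPM in upACSS2 tau and 426, 380 and 470 CPM in upACSS2 PBS. The 3 vector tau libraries lay below the other 9. Fosl2 fell by 0.63 with tau in vector (SE 0.13, edgeR adjusted p 0.0364), as 1 of 7 members, with 1.76% of all genes called lower, 1.26% higher and 3.02% in all. Over all genes 451 were called, and 1069 with the replicate block, where the numbers pair the libraries. That call was lost in 4 of 6 fits that left out a library, without vector tau replicate 1 (0.0729) or 3 (0.149) or vector PBS replicate 1 (0.168) or 3 (0.143), and with only the groups compared (0.0977).

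Between upACSS2 and vector in tau Fosl2 differed by 0.59 ± 0.13 (edgeR adjusted p 0.0551), and it passed with the replicate number as a block (0.0329), where the numbers pair the libraries, and with DESeq2 (0.00168). In that test edgeR called 0 of 7 members, 2 had an unadjusted p under 0.05, DESeq2 called 1, and 0.937% of all genes were called (0.542% lower). The interaction of virus and tau was 0.67 ± 0.18 for Fosl2 and did not pass (adjusted p 0.233), with 0 of 7 members called, 2 at an unadjusted p under 0.05 (Fosl1 and Fosl2), 0 with DESeq2, and 0% of all genes. Astrocyte markers moved with Fosl2: their sum was 3026 to 4752 CPM in vector tau, 6263 to 10190 in vector PBS, 7448 to 8422 in upACSS2 tau and 5562 to 9937 in upACSS2 PBS, and vector tau did not overlap the others. Their part in the Fosl2 difference was not tested.

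Fosl1 stood highest in stimulated upACSS2 PBS, at 1.54, 1.54 and 1.41 CPM, against 0.643, 0.737 and 0.350 CPM in vector PBS and 0.604, 0.418 and 0.438 CPM in upACSS2 tau, with no overlap in either comparison. The differences were 1.35 ± 0.34 for upACSS2 against vector in PBS (edgeR adjusted p 0.11, DESeq2 0.0384) and -1.62 ± 0.35 for tau against PBS in upACSS2 (0.0821, DESeq2 0.0082). edgeR called 0 of 7 members in each, DESeq2 1 in each, with 3 and 1 at an unadjusted p under 0.05 and 0.208% of all genes called in each (0.0937% higher with upACSS2 in PBS). Jun was 836, 687 and 679 CPM in vector tau and 527, 644 and 446 CPM in upACSS2 tau, a log2 difference of -0.45 ± 0.15 (edgeR adjusted p 0.133) without overlap, and Fos differed by 0.04 to 0.21 in size over the 4 pairwise comparisons. In PBS Fos was 1256 to 1379 CPM with upACSS2 and 1388 to 1680 CPM with vector, without overlap. The 3 members at an unadjusted p under 0.05 there were Fos, Fosl1 and Jun, beside 2375 of 14939 genes.

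In the culture without virus, tau libraries had higher Fos, Jun, Junb and Jund than PBS libraries in most replicates, and none passed with edgeR. Fos was 193, 222, 69.4 and 210 CPM with tau and 78.8, 70.0 and 27.1 CPM with PBS, and tau replicate 3 lay inside the PBS range. Jun was 264, 287, 243 and 275 CPM with tau and 166, 167 and 199 CPM with PBS, and Jund 257, 237, 239 and 263 against 191, 193 and 177 CPM, so neither overlapped. Junb was 104, 106, 53.8 and 85.0 CPM with tau and 39.8, 34.1 and 57.1 CPM with PBS. The log2 differences were 1.57 ± 0.49 for Fos, 0.59 ± 0.12 for Jun, 0.99 ± 0.28 for Junb and 0.41 ± 0.10 for Jund (edgeR adjusted p 0.319, 0.297, 0.308 and 0.306).

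With edgeR 0 of 7 members and 0% of 16341 genes passed, 4 members and 2272 genes had an unadjusted p under 0.05, and DESeq2 called 3 members (Jun 0.0025, Jund 0.00592, Fos 0.0475). Fosb, at 5.15, 8.21, 4.04 and 5.47 CPM with tau and 3.54, 3.41 and 7.56 CPM with PBS, differed by 0.22 ± 0.37 and overlapped. Cell type markers moved with tau here as well: astrocyte markers summed to 7207 to 13990 CPM with tau and 2215 to 9929 with PBS, oligodendrocyte precursor markers to 985 to 2158 and 16.5 to 752, and neuron markers to 2433 to 3279 and 3354 to 5849. Their part in the members' differences was not tested.

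In mice, no member passed between upACSS2 and vector in any of the 4 settings, by edgeR or by DESeq2. Over all genes edgeR called 0% in each setting, and DESeq2 called 0 genes in aged mice, 3 at 10 months, 1 in PS19 mice at 1 month and 129 at 6 months. The aged fit held no term for the 2 sets of replicates. With a term for replicates 1 to 3 and 4 to 12 edgeR called 14 genes in aged mice. It called 13 with the replicate block, 6 in replicates 4 to 12 alone and 0 in replicates 1 to 3 alone. At an unadjusted p under 0.05 there were 1 member in aged mice (Jun), 3 at 10 months (Fosb, Fosl2 and Junb) and 0 in PS19 mice at 1 month and at 6 months. Fosl1 was at or near 0 throughout, between 0 and 0.457 CPM over all mouse libraries.

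**Figure D4:**
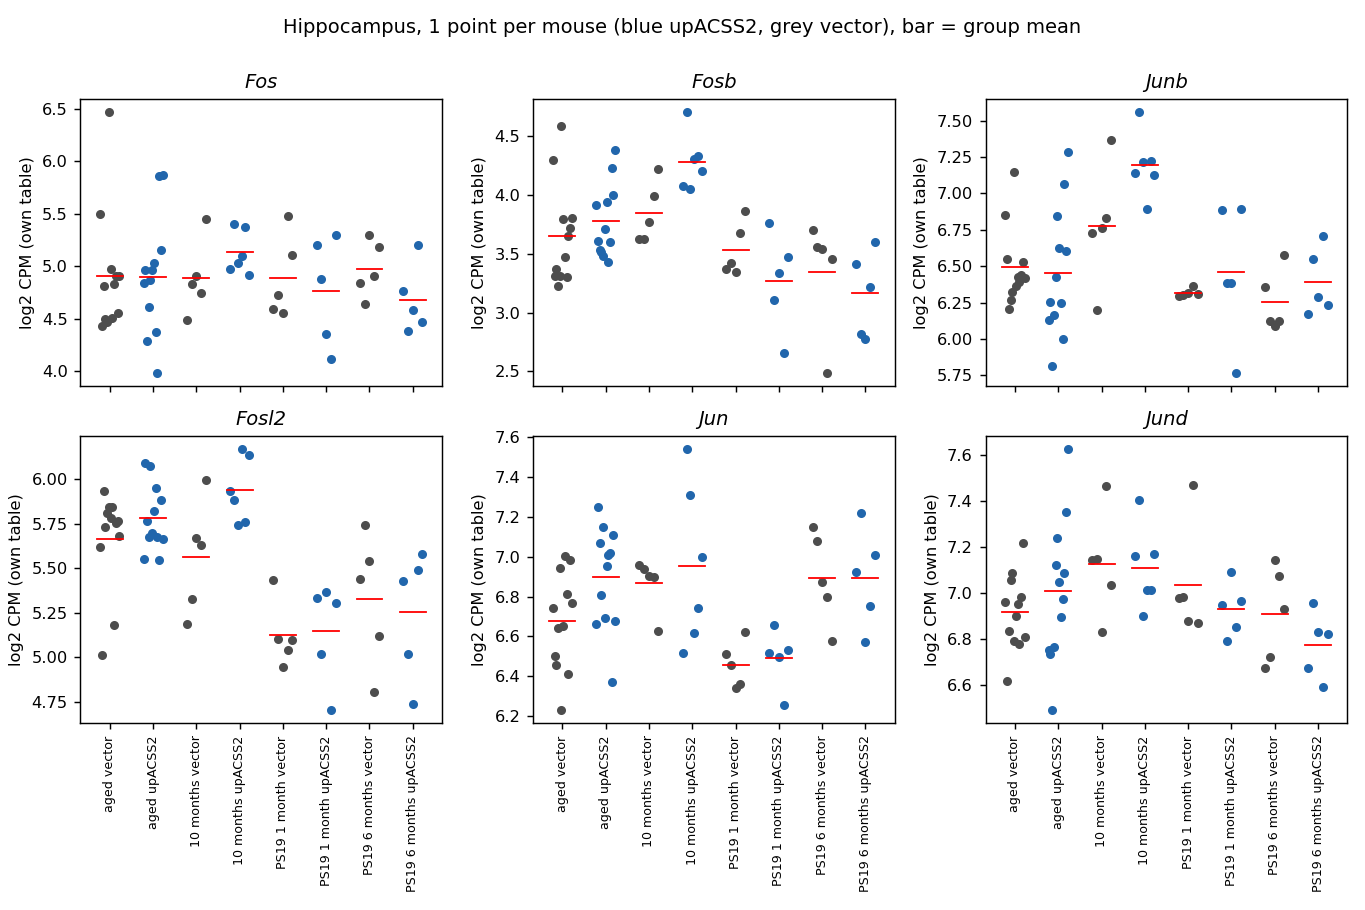
Log2 CPM of 6 members in hippocampus, with 1 point per mouse, blue for upACSS2 and grey for vector, and a bar for the group mean, each table scaled on its own. The 2 viruses overlap in every panel and setting, and Jun lies higher at 6 months than at 1 month after injection in most PS19 mice.

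In aged mice Fos ran from 15.7 to 58.2 CPM (median 30.1) with upACSS2 and from 21.6 to 88.2 CPM (median 28.2) with vector, and Fosb, Fosl2, Junb and Jund overlapped as well. Vector replicate 6 was the highest aged mouse for Fos (88.2 CPM) and Fosb (23.9 CPM), and it also had the highest Junb of its group (141 CPM). Jun ran from 82.8 to 152 CPM with upACSS2 and from 75.0 to 128 CPM with vector, a log2 difference of 0.22 ± 0.09 (edgeR adjusted p 0.875). Over 7 alternative fits, among them replicates 1 to 3 alone, replicates 4 to 12 alone and a term for the 2 sets, the Jun difference was 0.15 to 0.44 and never passed. Within the aged table the deviations of Fos and Jun from their group means correlated at -0.57 across 24 libraries, and those of Fos and Fosb at 0.87, given as a description.

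At 10 months Fosb was 16.6, 25.8, 16.2, 19.5, 19.8 and 18.2 CPM with upACSS2 and 12.1, 12.03, 13.4, 15.6 and 18.3 CPM with vector. The log2 difference was 0.45 ± 0.14 (edgeR adjusted p 0.518). Fosl2 ran from 53.3 to 71.6 CPM against 36.2 to 63.6 CPM, a difference of 0.37 ± 0.13 (0.518), and Junb from 119 to 188 against 73.2 to 165 CPM, a difference of 0.38 ± 0.16 (0.544). For Fosb, Fosl2 and Junb the upper vector mouse lay within the upACSS2 range. Of the 16 other rapid activity genes 0 were called and 14 had a log2 fold change above 0, with a median of 0.29 against -0.01 over all genes. Between the same viruses 10 of the 16 were above 0 in aged mice (median 0.03). In PS19 mice 10 were above 0 at 1 month (median 0.10) and 5 at 6 months (median -0.09).

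In PS19 mice with vector, Jun was higher 6 months after injection than 1 month after. It was 142, 135, 117, 111 and 95.2 CPM at 6 months and 91.2, 87.5, 81.0, 82.1 and 98.4 CPM at 1 month, so 4 of the 5 older mice lay above every younger one. The log2 fold change was 0.45 ± 0.12 (edgeR adjusted p 0.0261), as 1 of 6 tested members, with 4.59% of all genes called higher. With upACSS2 Jun was 121, 149, 95.1, 108 and 128 CPM at 6 months and 91.5, 101, 90.02, 76.3 and 92.2 CPM at 1 month, a difference of 0.41 ± 0.12 that did not pass (adjusted p 0.174). There 0 of 6 members were called by edgeR, 1 had an unadjusted p under 0.05, DESeq2 called 0, and 0.0442% of all genes were called. The difference between the virus groups in this change was -0.03 ± 0.16 for Jun (adjusted p 0.958), with 0 members called, 0 at an unadjusted p under 0.05, 0 with DESeq2 and 0% of all genes. The vector call was lost in 6 of 10 fits that left out a mouse, without 1-month replicates 1 to 4 (0.055 to 0.0663) or 6-month replicate 1 (0.0684) or 2 (0.0582). Age, time after injection and any batch of the 2 times cannot be told apart, and with upACSS2, as in the difference between the virus groups, dissection cannot be told apart from time either. Summed microglia markers moved with time in the vector mice, from 278 to 918 CPM (median 360) at 1 month and from 405 to 980 CPM (median 728) at 6 months, with 1 of 7 called higher. Of the other lists, 1 of 4 oligodendrocyte precursor markers and 1 of 6 oligodendrocyte markers were called higher and 0 of 7 astrocyte markers. Their part in the Jun difference was not tested.

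The other members differed little with time in PS19 mice with vector: Fos by 0.06 ± 0.22, Fosb by -0.15 ± 0.22, Fosl2 by 0.23 ± 0.18, Junb by -0.05 ± 0.16 and Jund by -0.13 ± 0.11 (edgeR, none passed). Of 16 other rapid activity genes 0 were called in either direction. Of 14 tested bZIP partners Atf7 was higher (0.43 ± 0.10), of 25 upstream genes Camk4, a calcium-dependent kinase, was lower (-0.58 ± 0.13), and of 15 tested targets Plau (1.10 ± 0.33) and Hmox1 (0.96 ± 0.28) were higher. Over all genes 4.59% were called higher and 2.87% lower, so single calls on lists of this size are near the background.

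**Figure D5:**
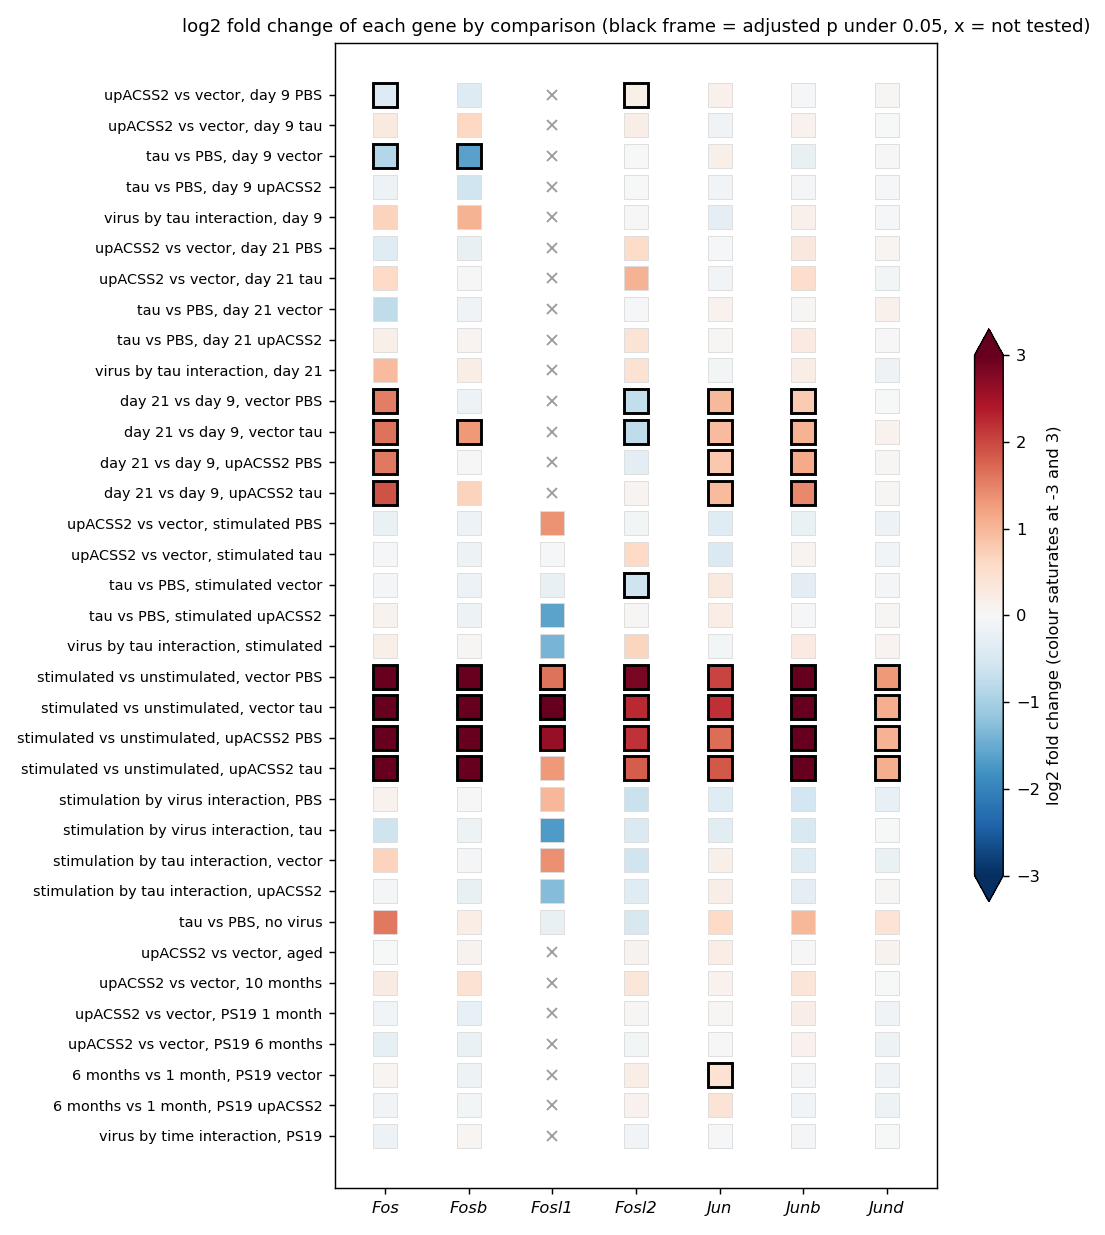
Log2 fold change (colour, saturating at -3 and 3) of each of the 7 genes in each of 35 comparisons or interactions, with a black frame where the edgeR adjusted p was under 0.05 and a cross where the gene was not tested. Frames fill the stimulation rows except for Fosl1 in upACSS2 tau, and Jund is framed in no other row.

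The 22 groups were placed in order of mean log2 CPM, although tables were scaled separately and only within-table differences were tested. Neighbours in this order have close means, so their overlap says little about groups further apart. Fosb, for example, was 10.05 to 14.4 CPM in PS19 vector at 1 month and 2.08 to 6.26 CPM in unstimulated day 21 vector PBS. No break between neighbours lay between these 2 groups. The 4 stimulated groups held the top 4 places for every member except Fosl1. For Fos 19 of 21 neighbouring pairs in the order overlapped: the breaks lay below the stimulated groups and above the 4 day 9 groups, with means from 10.56 in stimulated vector PBS to 3.16 in day 9 vector tau. For Fosb 20 of 21 pairs overlapped, with means of 9.58 and 0.87 in the same 2 groups. Junb ran from 10.10 to 4.19 with 2 breaks at the same places as Fos. Jun (9.51 in stimulated vector tau to 6.19 in day 9 vector PBS) and Fosl2 (8.79 in stimulated vector PBS to 5.12 in PS19 vector at 1 month) had 3 breaks each. Jund spanned 8.56 to 6.77, the narrowest range of the 6 members tested in every table, with 2 breaks. Fosl1 ran from 0.65 to -2.85, with 1 break, below stimulated upACSS2 PBS.

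Per kilobase, Jund was the largest member outside the stimulated neurons, with 63.7% to 65.3% of the family on day 9, 39.4% to 49.4% in the mouse groups and 43.1% to 51.0% without virus. Junb took 20.5% to 30.2% in the mouse groups and 5.70% to 12.1% in unstimulated neurons. Fos took 6.71% to 8.24% in mice sampled after behaviour, within the 2.72% to 10.7% seen in unstimulated neurons with a virus. These shares use the same annotated exon length per gene in every setting. The deposited counts listed 25239 genes for the neurons with a virus and 55367 for the mice and the culture without virus. The part of annotation in the place of Jund and in differences between neurons and mice was not tested.

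The genes whose deviations from group means were most like each member's were found among 11250 genes over 98 libraries, as the mean of 6 within-table Pearson correlations. For Fos they were Btg2 (0.61), Junb (0.60), Crip2 (0.58), Egr1 (0.57) and Ccn1 (0.57), and for Fosb Junb (0.67), Dnajb1 (0.57) and Minpp1 (0.56). For Junb they were Nr4a1 (0.71), Fosb (0.67) and Rasl11b (0.65). Fosl2 was nearest to Efnb2 (0.71), Tspyl3 (0.64) and Ldb2 (0.64), Jun to Bhlhe22 (0.65), Ccdc85a (0.65) and C1ql2 (0.64), and Jund to Zfp428 (0.66), Scand1 (0.63) and Esrra (0.61). The likeness lists of Fos, Fosb and Junb each held another member, whereas those of Fosl2, Jun and Jund held none. In single tables the correlation ran from -0.14 to 0.87 for Fos and Egr1 and from -0.31 to 0.92 for Fos and Ccn1. It was above 0 in every table for the other genes listed. Libraries of a table share their depth and cell make-up, which enter these correlations. Between members the mean was 0.50 for Fos and Fosb, -0.07 for Fos and Jun and 0.17 for Jun and Jund, and single tables ranged widely, for Fos and Fosl2 from -0.84 to 0.59.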

How the data were processed

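The authors deposited raw read counts per gene in 6 tables, which hold whole numbers. Per the submitters' processing notes, STAR, HTSeq, featureCounts, DESeq2 and the build mm10 were used, and versions are not given in the sources used here. Per the labels' protocols, libraries were made from 130 ng of RNA. A row without a gene name took 6.13% to 8.74% of the no-virus counts and was left out. From the counts, TMM-scaled CPM and quasi-likelihood tests were computed (R 4.3.3, edgeR 4.0.16, limma 3.58.1) after filterByExpr, with Benjamini-Hochberg adjustment over all genes tested and a threshold of 0.05. Day 9, day 21, stimulated, no-virus, aged, 10-month and PS19 libraries had a fit each, the culture-day comparison 1 fit, and stimulated and unstimulated day 21 libraries 1 joined fit. Fosl1 passed the filter only in the stimulated, joined and no-virus fits. DESeq2 1.42.0, other scaling, filters, spreads and left-out libraries were alternatives, and the procedure was tested on simulated data.

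The text names the 7 members, Acss2, at most 2 genes at each end of each pathway list among those past the threshold, and the genes most alike (5 for Fos, 3 for the others). The members and lists were chosen with earlier results of these data known. Replicate numbers paired the libraries (every correlation of same-numbered deviations over 0.1) for upACSS2 against vector in stimulated tau (0.111 to 0.383), tau against PBS in stimulated vector (0.14 to 0.344), stimulation in upACSS2 PBS (0.441 to 0.63) and upACSS2 tau (0.108 to 0.284), and the no-virus culture (0.22 to 0.394). Among 242 pairs of libraries of a group the lowest chi-square per gene was 2.32, so none was a repeat of another within sampling noise.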

Additional observations from a re-analysis of the deposited data

Results flagged for a closer look

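Within-group levels of the 7 genes were checked in groups of 4 to 10 libraries, and 5 of 49 checks found a library far from the rest, where chance alone would give 2.45. In the no-virus culture, tau replicate 3 had a Fos level of 6.12 on the log2 CPM scale, while the other 3 tau libraries lay between 7.59 and 7.80. In the 10-month vector mice, Jun was 6.63 in replicate 5 and 6.90 to 6.96 in the others, and Fosl1 was -0.64 in replicate 1 (4 reads) and -1.87 in the others, which held no reads. In PS19 mice with vector, Fosb was 2.49 in replicate 4 at 6 months, against 3.45 to 3.70, and Jund was 7.47 in replicate 4 at 1 month, against 6.87 to 6.98.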

How the results depend on the processing

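No member changed direction while past the threshold under any alternative. Over all pairs of a comparison and an alternative, the count of members past the threshold stayed close to the reported count in 452 and moved further in 36. With DESeq2 the count was 1 in place of 0 for upACSS2 against vector on day 9 with tau, in stimulated PBS and in stimulated tau, and for tau against PBS in stimulated upACSS2, and 3 in place of 0 without virus. With no filter on low counts it was 4 and 1 for upACSS2 against vector on day 9 in PBS and in tau, 3 for tau against PBS in day 9 vector, 1 for tau against PBS in day 9 upACSS2, 3 for the day 9 interaction and 1 for upACSS2 against vector in stimulated tau. With the replicate block it was 1 for upACSS2 against vector in stimulated PBS and in stimulated tau and for tau against PBS in stimulated upACSS2. In the fit of all 24 unstimulated libraries it was 0 for both day 9 comparisons that had passed and 1 for upACSS2 against vector on day 21 with tau. With only the groups compared it was 1 for upACSS2 against vector on day 9 in PBS, 0 for tau against PBS in stimulated vector and 1 in stimulated upACSS2. Leaving out 1 library gave 0 to 3 for upACSS2 against vector on day 9 in PBS, 0 to 2 for the day 9 interaction, and 0 to 1 for upACSS2 against vector in stimulated tau, tau against PBS in stimulated vector and Jun with time in PS19 vector. Leaving out libraries with over 4% Rn45s was chosen after seeing the data. Causes of these changes were not tested. Leave-one-out fits were not run for the 12 aged mice of each group. Over all genes, tau against PBS in day 9 vector called 600 genes, 1153 with no filter, 257 with only the groups compared and 1 in the 24-library fit, and upACSS2 against vector in day 9 PBS called 1437 and 2 in the 24-library fit. Tau against PBS in stimulated vector called 451 genes, 1521 with DESeq2, 1069 with the replicate block, where the numbers pair the libraries, and 0 with only the groups compared.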
